A study of Mus musculus with 8 samples.

Results

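Pvalb nuclei were taken from single-nucleus RNA sequencing of mouse perilesional forebrain by counts of marker transcripts in each nucleus, and 183 of 44762 kept barcodes qualified (0.409%). A nucleus had to carry at least 2 unique molecular identifiers (UMIs, each standing for 1 captured transcript) of Pvalb and at least 2 of the GABA-synthesising enzymes Gad1 and Gad2 together. It could carry at most 3 UMIs of Sst, 1 of Vip and 1 of the vesicular glutamate transporters Slc17a7 and Slc17a6 together, and none of the glial genes Mog, Aqp4 and Cx3cr1. The same rule without its Pvalb, Sst and Vip terms kept 5125 GABAergic nuclei, of which the 183 were 3.57%. Of the 183, 108 (59.0%) sat at the limit with exactly 2 Pvalb UMIs and the highest count was 6, while 327 GABAergic nuclei that also met the Sst and Vip limits lay just outside it with exactly 1 UMI.

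The tissue came from male Swiss Webster mice aged 10 weeks, in 8 libraries. The 4 groups had 2 libraries each and were named control, TBI for traumatic brain injury, BCAS, and BCAS+TBI for both surgeries together. The labels give BCAS only as an abbreviation, which the title of the study ties to reduced blood flow to the brain, and give neither the time after surgery nor the number of animals behind a library. They call the libraries biological replicates without saying that each is a separate animal, so the p-values below measure the spread between these libraries. Pvalb nuclei numbered 12 and 26 in the control libraries (replicates 1 and 2), 18 and 34 in BCAS, 26 and 26 in TBI, and 20 and 21 in BCAS+TBI.

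Interneurons that express the calcium-binding protein parvalbumin fire fast, brief action potentials, which Kv3 potassium channels make possible, and release GABA onto the cell bodies (basket cells) or axon initial segments (chandelier cells) of pyramidal neurons. In cortex and hippocampus they arise from the medial ganglionic eminence under Lhx6 and Sox6, are rich in mitochondria and are often wrapped in perineuronal nets, a matrix of chondroitin sulphate proteoglycans. Parvalbumin is also made by GABAergic neurons elsewhere in the forebrain, for example in the reticular thalamus and the globus pallidus.

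The libraries held 28118725 to 56135192 UMIs in all, and the summed Pvalb nuclei held 81562 to 343362 UMIs per library and 1587210 in total, with a median of 5330.5 to 9888.5 UMIs per nucleus. By total UMIs the libraries formed 2 sets, each with 1 library of every group: set 1 (control 1, BCAS 1, TBI 1 and BCAS+TBI 2) was shallower than set 2 (control 2, BCAS 2, TBI 2 and BCAS+TBI 1). In the summed Pvalb nuclei 355 of 4577 genes (7.76%) passed an adjusted p of 0.05 for a difference between the sets in edgeR's quasi-likelihood test, 80 higher and 275 lower in set 2, so the set was a term of every comparison of groups. Any 2 libraries shared 5 to 20 barcodes, none of them among the Pvalb nuclei.

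The markers set out for the label were present in every library. On the CPM scale, the UMI count of a gene relative to all UMIs of the summed nuclei in a library, Pvalb lay between 218 and 403 and Gad1 between 275 and 561, as the rule requires of them. Kcnc2, the Kv3.2 potassium channel, lay between 1366 and 2365 CPM and Kcnmb2, an auxiliary subunit of the calcium-activated BK channel, between 572 and 1091 CPM. Neither of those entered the rule. Kcnmb2 had a UMI in 94.0% of Pvalb nuclei and 8.32% of 7672 excitatory nuclei, and Syt2, the calcium sensor of fast GABA release, in 67.2% and 7.14%, at median depths of 5330.5 to 9888.5 and 5200.5 to 9942 UMIs per nucleus across libraries. Kcnc1, which encodes Kv3.1, had a UMI in 89.1% of Pvalb nuclei and 36.2% of excitatory nuclei. Pvalb itself had a UMI in 1.33% of excitatory nuclei. The chandelier cell markers were close to 0: Vipr2 had a UMI in 2 of the 183 nuclei and Unc5b in 13.

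Transcripts of the eminence lineage were not detected in many of the 183 nuclei, which goes against a single interneuron label. Sox6 was detected in 59.6% of the nuclei and Lhx6 in 23.0%, against 82.2% and 41.5% of 523 Sst nuclei at a similar depth (median of 5262.5 to 10006.5 UMIs). Meis2, a transcription factor listed with Six3 among markers of GABAergic neurons outside cortex and hippocampus, was detected in 34.4% (63 nuclei). It was also detected in 39.9% of excitatory nuclei, while Six3 was detected in 21.3% of Pvalb nuclei and 0.235% of excitatory nuclei. The other listed markers of such neurons were rare in Pvalb nuclei: Spp1 in 8.74%, Zic1 in 3.28%, Ecel1 in 2.19% and Lhx8 in 1.64%. A split chosen after seeing the data, at 2 summed UMIs of each pair, placed 97 nuclei (53.0%) with Sox6 or Lhx6 alone, 50 (27.3%) with Meis2 or Six3 alone, 4 (2.19%) with both and 32 (17.5%) with neither. The nuclei are therefore called by the gene that chose them, Pvalb nuclei, and not by a single interneuron type.

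**Figure D1:**
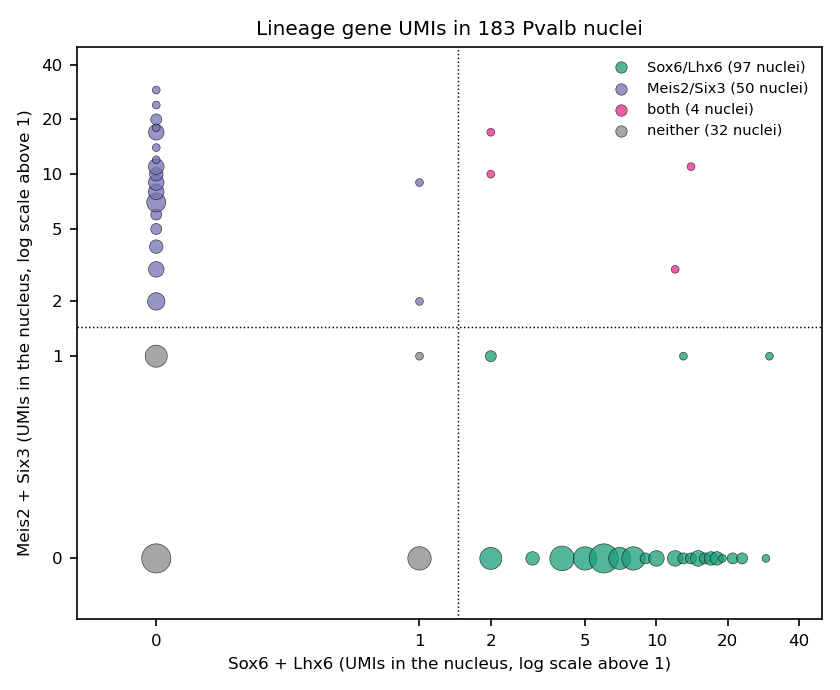
Summed UMIs of Sox6 and Lhx6 (horizontal axis) against summed UMIs of Meis2 and Six3 (vertical axis) in each of the 183 Pvalb nuclei, with point area showing how many nuclei share a position and dotted lines drawn below 2 UMIs. The nuclei lie along the 2 axes, 97 with Sox6 or Lhx6 alone and 50 with Meis2 or Six3 alone, and 4 carry both.

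The Meis2/Six3 nuclei were found in every library, from 4 to 12 per library, and made up 50% of the Pvalb nuclei of control 1, between 15.4% and 35.3% of those in the other libraries. They had a median of 7275.5 UMIs per nucleus, against 8696 in the Sox6/Lhx6 nuclei, and a median of 2.5 Pvalb UMIs against 2, values that the rule's minimum of 2 confines. Since the split was drawn from the same nuclei, the levels that follow are a description over the summed nuclei of each kind and carry no test. Kcnc2 stood at 2683 CPM in the Sox6/Lhx6 nuclei and 555 CPM in the Meis2/Six3 nuclei, and the AMPA receptor subunit Gria1 at 1856 and 118 CPM. Cemip, a hyaluronan-degrading protein, stood at 548 and 20.1 CPM, and the transcription factor Satb1 at 178 and 20.1 CPM. Each of these 4 was higher in the Sox6/Lhx6 nuclei in 8 of 8 libraries. In the other direction the sulphotransferase Hs3st4 stood at 46.6 CPM in the Sox6/Lhx6 nuclei and 3038 CPM in the Meis2/Six3 nuclei, the growth factor Nrg1 at 177 and 3339 CPM, the G-protein regulator Rgs6 at 18.4 and 1912 CPM, and the sodium channel Scn3a at 28.2 and 596 CPM.

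Both kinds of nuclei carried the release and channel genes that are usual for Pvalb neurons. Syt2 stood at 253 CPM in the Sox6/Lhx6 nuclei and 188 CPM in the Meis2/Six3 nuclei, higher in the former in 6 of 8 libraries. Kcnmb2 stood at 824 and 819 CPM, the complexin Cplx1 at 162 and 161 CPM, and Ppargc1a, the coactivator of mitochondrial genes, at 267 and 256 CPM. Kcnc1 stood at 617 and 367 CPM, Kcna1 (Kv1.1) at 196 and 146 CPM, and Esrrg, an oestrogen-related receptor, at 937 and 1397 CPM, the last higher in the Meis2/Six3 nuclei in 8 of 8 libraries. The genes shared by the 2 kinds of nuclei included those of firing and release, while many receptor and adhesion genes went with one kind.

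To find what the Pvalb nuclei shared beyond the genes that chose them, their summed counts were compared within each library with those of 523 Sst, 320 Vip and 236 Lamp5 nuclei, the other large interneuron classes, chosen by the same kind of rule. A gene was called at an adjusted p under 0.05 in edgeR's quasi-likelihood test with at least a 2-fold difference. On the higher side were potassium channel genes of fast firing, the release genes Syt2 and Cplx1, Esrrg, Ppargc1a and the proteoglycan Bcan, and the endocannabinoid receptor Cnr1 and the GABA-A subunit Gabra2 on the lower side. Called higher were 211 of 5201 genes (4.06%) against Sst nuclei, 195 of 3425 (5.69%) against Vip nuclei and 184 of 3435 (5.36%) against Lamp5 nuclei. Called lower were 287 (5.52%), 273 (7.97%) and 230 (6.7%), for 498 (9.58%), 468 (13.7%) and 414 (12.1%) in all. Of 3195 genes tested in all 3 comparisons, 60 were called higher in all 3 and 63 lower in all 3, and the comparisons share the Pvalb nuclei. The 3 other classes had median depths of 3254 (Vip) to 10006.5 (Sst) UMIs per nucleus across libraries.

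The potassium channels of fast firing were tilted toward the Pvalb nuclei. Of 15 listed, 5 of 12 tested were called higher against Sst nuclei, 3 of 8 against Vip nuclei and 6 of 10 against Lamp5 nuclei, none lower, with median log2 differences of 0.53, 0.85 and 1.16 beside medians over all genes of 0.02, -0.02 and -0.00. The shares of all genes called higher were 4.06%, 5.69% and 5.36%. Kcnc1 had a lowest, median and highest library value of 414, 502 and 607 CPM in Pvalb nuclei, and its highest value in any library of the other classes was 203 (Sst), 283 (Vip) and 314 CPM (Lamp5), so the classes did not overlap. Its log2 differences were 1.47 ± 0.095 (SE), 1.01 ± 0.13 and 1.09 ± 0.13, with adjusted p of 3.63e-11, 4.79e-07 and 1.64e-06 in edgeR's quasi-likelihood test. The call against Vip nuclei lay close to the 2-fold limit and was lost without control 2 (log2 difference 0.99) or without BCAS+TBI 2 (0.97), and the call against Lamp5 nuclei was lost with each nucleus thinned to 3000 UMIs.

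Kcna1, whose Kv1.1 channel sits at axon initial segments and terminals, ranged from 106 to 223 CPM with a median of 163, above the highest values of 77.4, 46.7 and 72.4 CPM in Sst, Vip and Lamp5 nuclei. Its log2 differences were 1.52, 2.45 and 1.77, all called. Kcnc2 did not set the pooled Pvalb nuclei apart from Sst nuclei, with means of 1899 ± 313 and 1622 ± 287 CPM (SD, n = 8 libraries). The log2 difference was 0.22 ± 0.081, below the 2-fold limit. That pool mixes Sox6/Lhx6 nuclei at 2683 CPM and Meis2/Six3 nuclei at 555 CPM. Over the pool Kcnc2 differed by 0.91 on the log2 scale from Vip nuclei and by 2.37 from Lamp5 nuclei, where it stood at 370 ± 113 CPM. Kcnmb2, a marker of the label, differed by 0.20, 0.21 and 0.89 on the log2 scale, none of them 2-fold.

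Of 18 listed release genes, 2 of 16, 2 of 13 and 2 of 13 tested were called higher against Sst, Vip and Lamp5 nuclei, and 1, 0 and 1 lower. Over all genes 4.06%, 5.69% and 5.36% were called higher and 5.52%, 7.97% and 6.7% lower. The widest difference among the listed channels and release genes was that of Syt2. Syt2 ranged from 184 to 287 CPM with a median of 227 in Pvalb nuclei, and its medians were 4.71, 15.5 and 7.47 CPM in Sst, Vip and Lamp5 nuclei, with no overlap. The log2 differences were 4.84 ± 0.26, 3.71 ± 0.24 and 4.53 ± 0.25, with adjusted p of 1.99e-12, 5.18e-12 and 1.2e-10 in edgeR's quasi-likelihood test, and Pvalb nuclei were higher in 8 of 8 libraries each time. Cplx1, which clamps and speeds vesicle fusion, averaged 158 ± 40.1 CPM against 76.4, 46.4 and 55.2 CPM and was called higher in all 3, although not against Sst nuclei when no filter on low counts was used. Unc13c, a vesicle priming factor, was called lower against Sst nuclei (log2 difference -2.44), and Rims1, an active zone scaffold, against Lamp5 nuclei (-1.32). The other listed release genes were not called, and the list medians were -0.09, -0.03 and -0.08.

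Of 15 sodium channel and axon initial segment genes, 1 of 14, 2 of 12 and 2 of 12 tested were called higher and 1, 0 and 1 lower. Over all genes 4.06%, 5.69% and 5.36% were called higher and 5.52%, 7.97% and 6.7% lower. The call on the lower side against Sst nuclei was Scn3b, an auxiliary sodium channel subunit, with a log2 difference of -2.74. Scn1a, the gene of the Nav1.1 channel, whose loss in interneurons causes epilepsy, averaged 709 ± 76.0 CPM and was higher by 0.65, 0.70 and 0.56 on the log2 scale, in 8 of 8 libraries each but below 2-fold. Scn2a, the Nav1.2 gene, was lower by a like amount (-0.80, -0.81 and -0.70), also in every library. Ank1, a membrane skeleton adaptor, was called higher against Vip and Lamp5 nuclei (1.52 and 1.51), and Fgf13, a sodium channel modulator, higher against Sst nuclei (1.04) and lower against Lamp5 nuclei (-2.54). The Fgf13 call against Sst nuclei was lost without control 2 (0.87), without BCAS 2 (0.90) and without the Meis2/Six3 nuclei (0.96), and also in DESeq2, with no filter on low counts and with each nucleus thinned to 3000 UMIs.

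**Figure D2:**
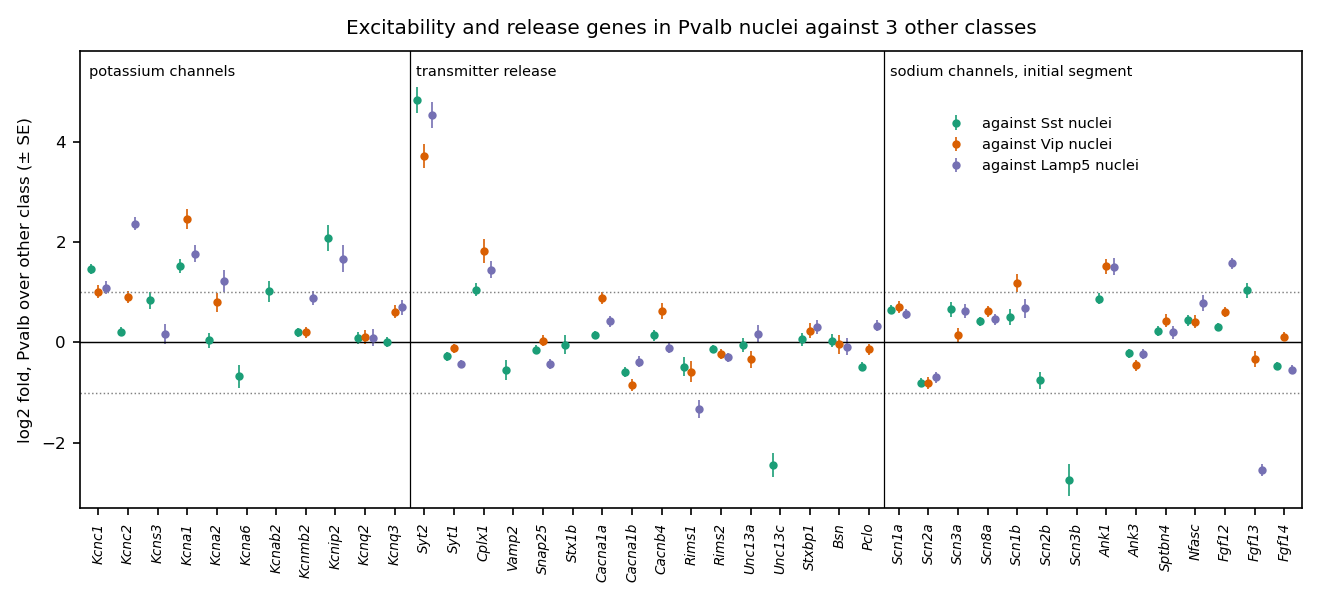
Log2 difference of Pvalb nuclei from Sst, Vip and Lamp5 nuclei (points with SE bars) for tested genes of 3 lists: fast potassium channels, transmitter release, and sodium channels with the axon initial segment; dotted lines mark 2-fold. Syt2 lies farthest to the higher side in each comparison (4.84, 3.71 and 4.53), Kcnc1 and Kcna1 pass the 2-fold line in all 3, and Scn1a and Scn2a stay inside it on opposite sides.

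Esrrg and Ppargc1a, which together drive genes of mitochondrial oxidation in neurons and muscle, were both called higher in all 3 comparisons. Esrrg ranged from 790 to 1321 CPM with a median of 1011, and the highest library values of the other classes were 266, 317 and 317 CPM. Its log2 differences were 2.08 ± 0.099, 2.09 ± 0.12 and 2.21 ± 0.13. Ppargc1a ranged from 188 to 331 CPM with a median of 265, above the highest values of 129, 96.9 and 74.1 CPM in the other classes, with log2 differences of 1.53 ± 0.13, 1.76 ± 0.16 and 2.54 ± 0.16. It was the only gene of the mitochondrial energy list of 16 that was called, in 12, 10 and 9 tested. Over all genes 4.06%, 5.69% and 5.36% were called higher. All 12 of those tested against Sst nuclei had a positive difference. The share of all genes with a positive difference was not counted, and the signs of the listed genes are not independent of each other. The median of those 12 was 0.37, beside 0.02 over all genes.

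The promoters of Syt2 and Esrrg are shown because these 2 genes separated the Pvalb nuclei in all 3 comparisons and, among the 21 genes named as higher that have a promoter window in RefSeq, were the ones with an oestrogen-related receptor (Syt2) or a MEF2 type motif (Esrrg). The search took 250 bases before to 50 after each start, and the 250 bases before are printed from RefSeq on GRCm38.p6, at chr1:134646362-134646611 for Syt2 and chr1:187608756-187609005 for Esrrg, both on the plus strand, with the motif in capitals.
Syt2: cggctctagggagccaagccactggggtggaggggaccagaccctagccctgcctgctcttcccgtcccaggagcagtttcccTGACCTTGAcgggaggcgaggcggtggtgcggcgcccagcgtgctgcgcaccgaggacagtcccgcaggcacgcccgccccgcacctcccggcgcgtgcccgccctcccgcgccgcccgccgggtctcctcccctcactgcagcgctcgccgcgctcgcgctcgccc
Esrrg: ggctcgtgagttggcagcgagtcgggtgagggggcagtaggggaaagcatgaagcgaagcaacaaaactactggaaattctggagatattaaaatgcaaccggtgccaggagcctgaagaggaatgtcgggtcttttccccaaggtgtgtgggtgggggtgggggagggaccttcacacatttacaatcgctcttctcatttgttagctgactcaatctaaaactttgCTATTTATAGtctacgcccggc
The capitals in Syt2 are the reverse complement of TCAAGGTCA, the letters bound by receptors of the Esrrg kind, starting 167 bases before the transcription start. Those letters occur on either strand in the promoters of 126 of 27025 genes (0.466%). The capitals in Esrrg are a MEF2 type motif, whose letters on either strand were searched as they stand there, 22 bases before the start, found for 49 genes (0.181%), and they overlap a reverse TATAAA, which 4234 genes (15.7%) and 5 of the 21 hold. The 3 motifs were chosen with the windows known, and a match describes letters and does not show binding.

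Cemip was named by its p-value in 2 comparisons and Btbd11 in 2. Cemip had library values of 244 to 417 CPM with a median of 299, against highest values of 23.5, 57.4 and 80.2 CPM, and log2 differences of 4.10 ± 0.14, 4.00 ± 0.24 and 2.44 ± 0.15. Btbd11, an ankyrin repeat protein and a known marker of Pvalb neurons, ranged from 383 to 630 CPM and overlapped the Vip nuclei (196 to 507 CPM), where the log2 difference was 0.36, but not the Sst or Lamp5 nuclei (2.42 and 2.23). Further genes among the 10 with the smallest p on the higher side were the membrane protein Tmem108 (3.41) and the synaptic adhesion gene Lrrc4c (2.20) against Sst nuclei, the transcription factor Mitf (3.33) and the neurexin ligand Nxph1 (3.15) against Vip nuclei, and the calcium channel subunit Cacna2d2 (3.42) and Oxr1 (2.49), which protects against oxidative damage, against Lamp5 nuclei. Dock4, a guanine exchange factor, was named in all 3 (2.08, 2.29 and 2.43).

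**Figure D3:**
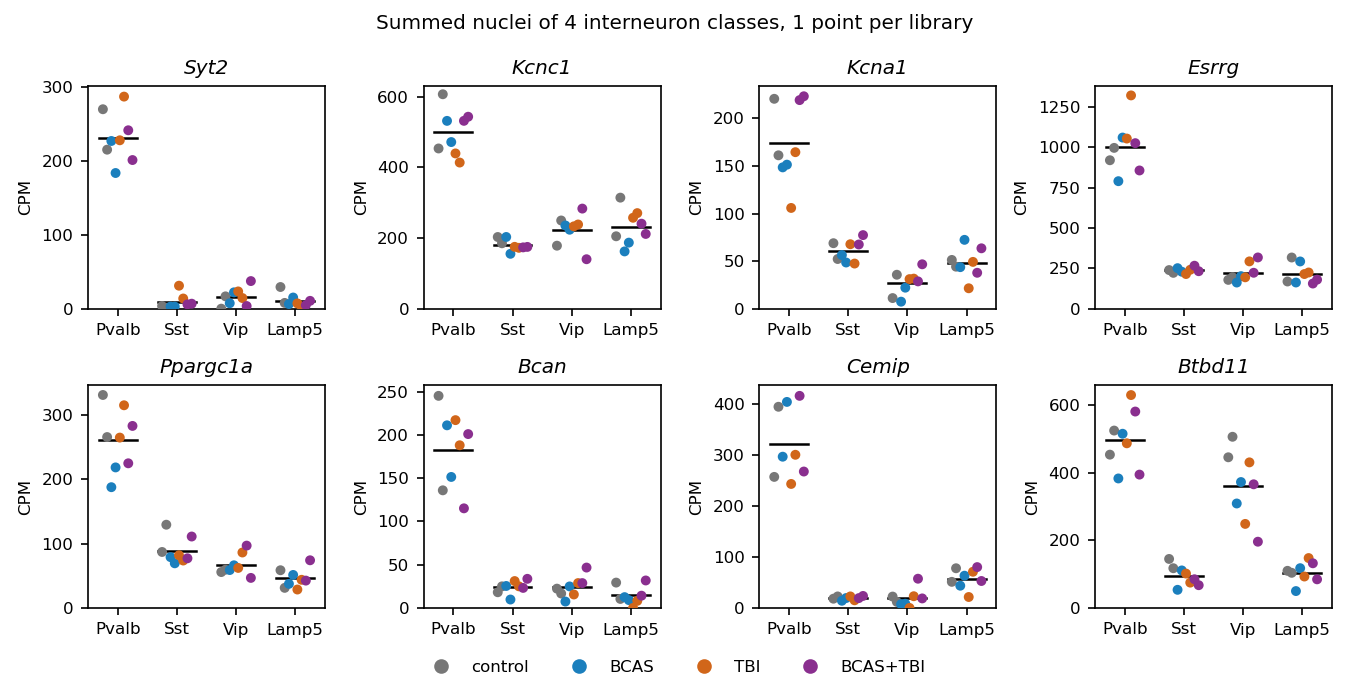
CPM of 8 genes in the summed Pvalb, Sst, Vip and Lamp5 nuclei of each library, with 1 point per library coloured by group and a bar at the mean. For Syt2, Kcnc1, Kcna1, Esrrg, Ppargc1a, Bcan and Cemip all 8 Pvalb points lie above every point of the other classes, and for Btbd11 the Vip points overlap (up to 507 CPM).

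Few perineuronal net genes were measurable, with 4, 3 and 4 of 16 listed genes tested, and they did not move as a group. Bcan, which encodes the net proteoglycan brevican, ranged from 115 to 245 CPM with a median of 195, above the highest values of 33.6, 46.7 and 31.7 CPM in the other classes, and was called higher in all 3 (2.88 ± 0.17, 2.68 ± 0.21 and 3.75 ± 0.25). Tnr, the net glycoprotein tenascin-R, was called higher against Vip nuclei (1.07; 0.94 and not called without BCAS 2), with 0.28 against Sst nuclei and 0.91 against Lamp5 nuclei not past 2-fold, and Ptprz1, a receptor phosphatase that binds such proteoglycans, was called lower against Vip nuclei (-3.23). Against Lamp5 nuclei the link protein gene Hapln1 was called lower (-3.18). Acan, the core proteoglycan of nets, was detected in 13.1% of Pvalb nuclei and 0.795% of excitatory nuclei and was too low to be tested.

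Receptor genes were called in both directions. Among the GABA-A subunits called higher against Sst nuclei were Gabrb2, Gabrg3 and Gabrd (1.09, 1.59 and 2.77), and Gabra2, Gabrb1 and Gabrg1 were called lower there (-2.34, -1.27 and -3.54). Of 12 listed, 11 were tested, 4 of them called higher and 3 lower, and the Gabrb2 call was lost with no filter on low counts. Over all genes 4.06% were called higher and 5.52% lower against Sst nuclei. Gabra2, an alpha subunit of synaptic GABA-A receptors, averaged 51.3 ± 22.5 CPM in Pvalb nuclei and was called lower against Vip (-2.19) and Lamp5 nuclei (-1.76) too, as was Gabrb1 (-1.55 and -1.28). Of the ionotropic glutamate receptor subunits, 0 of 16 tested were called higher against Sst nuclei and 5 lower, among them the NMDA receptor subunit Grin3a (119.8 ± 29.6 against 999 ± 158 CPM, log2 difference -3.07) and the kainate receptor subunit Grik1 (-1.64). Grik1 was also called lower against Vip (-1.08; not called at -0.95 without BCAS+TBI 1, at -0.91 without the Meis2/Six3 nuclei, or without nuclei with at least 5 Adarb2 UMIs) and Lamp5 nuclei (-1.85), and the AMPA receptor subunit Gria3 was called higher against Vip nuclei (2.36). Erbb4, the neuregulin receptor of interneurons, averaged 6529 ± 1790 CPM and was called higher against Sst nuclei (2.09), with -0.43 and -0.29 against Vip and Lamp5 nuclei.

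Genes that mark the other classes stood at the low end in Pvalb nuclei. Cnr1, the cannabinoid receptor of Cck basket cells, averaged 22.7 ± 11.4 CPM and was lower by -2.23, -5.52 and -3.23 on the log2 scale, all called. Against Sst nuclei the neuropeptide gene Npy (-4.84), the matrix protein gene Reln (-4.92) and the vesicle protein gene Synpr (-5.12) were among the 10 named genes on the lower side. Against Vip nuclei the genes named as lower included Synpr (-6.1), the tachykinin gene Tac2 (-6.95) and the growth factor Igf1 (-5.81). Against Lamp5 nuclei they included Reln (-5.5), the neurotrophic factor Ndnf (-7.55) and the guidance cue Sema3c (-5.75). All 60 differences named by p for the 3 comparisons had the same direction in 8 of 8 libraries. The test that chose them was paired over these same libraries, so this agreement is no separate support.

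The lineage factors depended on which nuclei were counted. Sox6 averaged 490 ± 135 CPM and was called higher against Vip (3.29) and Lamp5 nuclei (4.03), with -0.83 against Sst nuclei. Lhx6 (-1.08) and Satb1 (-1.19) were called lower against Sst nuclei. With all 54 nuclei that passed the Meis2/Six3 limit left out, the 4 with both pairs included, these became -0.61 and -0.78 and were no longer 2-fold, and without TBI 2 the Lhx6 difference was -0.995 and not called, as it was without the nuclei with at least 5 Adarb2 UMIs. Leaving those nuclei out also ended the calls of Gria1 against Sst nuclei (-1.36 to -0.92) and of Hs3st4 against Lamp5 nuclei (2.78 to 0.21), and turned the sign of Nrg1 against Vip nuclei (1.21 to -0.28). By contrast Syt2, Kcnc1, Esrrg, Ppargc1a and Bcan stayed called in all 3 comparisons without them.

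Pvalb nuclei made up 2.66% (95% Wilson interval 1.53 to 4.58) and 3.67% (2.52 to 5.32) of the GABAergic nuclei in control 1 and 2, and 3.63% (2.31 to 5.66) and 3.80% (2.73 to 5.26) in BCAS 1 and 2. They made up 5.66% (3.90 to 8.17) and 2.61% (1.78 to 3.79) in TBI 1 and 2, and 2.73% (1.77 to 4.17) and 5.50% (3.62 to 8.26) in BCAS+TBI 1 and 2. The intervals cover counting error only. The 2 highest shares were those of TBI 1 and BCAS+TBI 2, both of the shallower set, while TBI 2 of the deeper set lay below both control libraries and BCAS+TBI 1 between them. The mean share was 4.12 ± 1.69% in the 4 libraries with TBI and 3.44 ± 0.527% in the 4 without (SD, n = 4; two-sided exact permutation p = 0.457 over 70 assignments, 0.743 adjusted over both surgeries). The difference was 2.44 percentage points within set 1 and -1.07 within set 2, so its direction did not hold within the sets (within-set exact permutation p = 0.444). For BCAS the means were 3.91 ± 1.16% with and 3.65 ± 1.43% without (exact permutation p = 0.743), with differences of 0.404 and 0.126 points within the sets. With 4 libraries against 4 the smallest p this test can give is 0.0286. Counting only nuclei with at least 3 Pvalb UMIs turned both differences, to -0.154 points for TBI and -0.631 for BCAS, and without BCAS+TBI 2 the BCAS difference was -0.264.

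**Figure D4:**
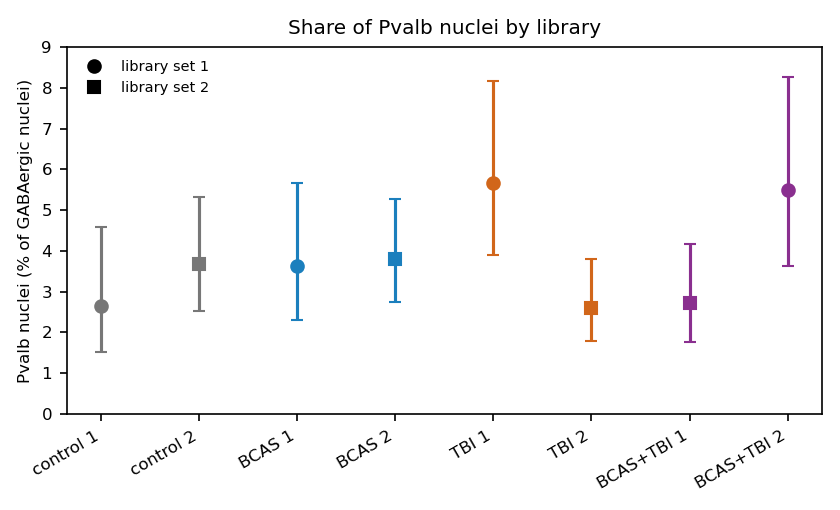
Pvalb nuclei as a percentage of the GABAergic nuclei of each library, by group, with 95% Wilson intervals; circles are libraries of set 1 and squares of set 2. TBI 1 (5.66%) and BCAS+TBI 2 (5.50%), both of set 1, lie above the other 6 libraries, which range from 2.61% to 3.80%.

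Few single genes differed between the groups of animals, and some of those that did rested on few nuclei. Gpc5, Cpne4, Sorcs3 and Ntng1 had a UMI in 22 to 43 Pvalb nuclei over all libraries. The rest of the called genes had a UMI in 83 to 101 nuclei, although in BCAS+TBI 1 a single nucleus held 64 of 81 Ralyl UMIs. After BCAS, averaged over the libraries with and without TBI, the transcripts of Ralyl, Kcnq5 and Ntng1 were higher and a long noncoding RNA was lower: 4 of 4573 genes tested (0.0875%) passed an adjusted p of 0.05 in edgeR's quasi-likelihood test, and 245 had an unadjusted p under 0.05. After TBI alone Gpc5 rose, the 1 gene called against control (0.0219%; 202 with an unadjusted p under 0.05). Between BCAS+TBI and TBI the 1 gene called was Cpne4 (0.0219%; 221 with an unadjusted p under 0.05), and the interaction of the 2 surgeries called Sorcs3 and Cpne4 (0.0437%; 213). No gene was called for BCAS against control (0%; 213 with an unadjusted p under 0.05), BCAS+TBI against control (0%; 257) or TBI averaged over BCAS (0%; 246). DESeq2 called 0 genes in each of these contrasts except the interaction, where it called 1.

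Ralyl, an RNA-binding protein of the RALY family (chromosome 3, 13471655 to 14182287, plus strand, GRCm38), stood at 85.8 and 180 CPM in control 1 and 2, 618 and 382 in BCAS, 159 and 212 in TBI, and 444 and 283 in BCAS+TBI. The 4 libraries with BCAS lay above the 4 without. The log2 difference was 1.33 ± 0.22 (adjusted p = 0.0169, edgeR's quasi-likelihood test). It ranged from 1.08 to 1.72 with 1 library left out (adjusted p from 4.52e-06 to 0.144, past the threshold in 7 of 8 cases and lost without BCAS+TBI 1, where 64 of 81 UMIs came from 1 nucleus). Under the other settings it stayed positive, from 0.78 to 3.35, and passed in 5 of 10 (adjusted p from 1.88e-05 to 1.00). The settings that ended the call included the fit without the library set, DESeq2, and leaving out the Meis2/Six3 nuclei or those with at least 5 UMIs of Adarb2, a marker of other interneurons.

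Kcnq5, whose Kv7.5 channel carries the M-current that damps repetitive firing (chromosome 1, 21398403 to 21961942, minus strand), stood at 343 and 174 CPM in control, 587 and 603 in BCAS, 307 and 202 in TBI, and 433 and 432 in BCAS+TBI, again without overlap between libraries with and without BCAS. The log2 difference was 1.08 ± 0.19 (adjusted p = 0.0282, edgeR's quasi-likelihood test). The call was lost without control 2, BCAS 2 or BCAS+TBI 1 (range 0.83 to 1.24 over left-out libraries, adjusted p from 0.00029 to 0.286) and held in 5 of 10 other settings (0.76 to 2.12, adjusted p from 0.00104 to 1.00).

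Ntng1, the axonal adhesion protein netrin-G1 (chromosome 3, 109780040 to 110144011, minus strand), stood at 12.3 and 75.9 CPM in control, 86.0 and 134 in BCAS, 31.8 and 37.6 in TBI, and 176 and 104 in BCAS+TBI. The libraries with BCAS were all higher, but 9 of 11 UMIs of BCAS 1 and 21 of 32 of BCAS+TBI 1 came from 1 nucleus each. The log2 difference was 1.52 ± 0.29 (adjusted p = 0.0453, edgeR's quasi-likelihood test), and the call held in 3 of 8 cases with 1 library left out, being lost without control 2, BCAS 2, TBI 2, BCAS+TBI 1 or BCAS+TBI 2 (1.31 to 2.38, adjusted p from 0.00133 to 0.184). It held in 4 of 10 other settings (1.17 to 2.97, adjusted p from 0.00536 to 1.00). The fourth gene, the lincRNA C130073E24Rik (chromosome 8, 50743291 to 50916997, minus strand), is named here after its values were seen. It stood at 478, 364, 323 and 357 CPM in the libraries without BCAS (control 1 and 2, TBI 1 and 2) and at 117, 175, 170 and 156 CPM in those with it (BCAS 1 and 2, BCAS+TBI 1 and 2), a log2 difference of -1.23 ± 0.19 (adjusted p = 0.0146, edgeR's quasi-likelihood test; -1.45 to -1.11 over left-out libraries, adjusted p from 8.09e-05 to 0.0702, lost without BCAS+TBI 1). The call held in 6 of 10 other settings (-1.996 to -1.10, adjusted p from 0.0004 to 0.863), those without the Meis2/Six3 nuclei among them. Those nuclei held 52.6% of its UMIs and 27.8% of all UMIs.

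**Figure D5:**
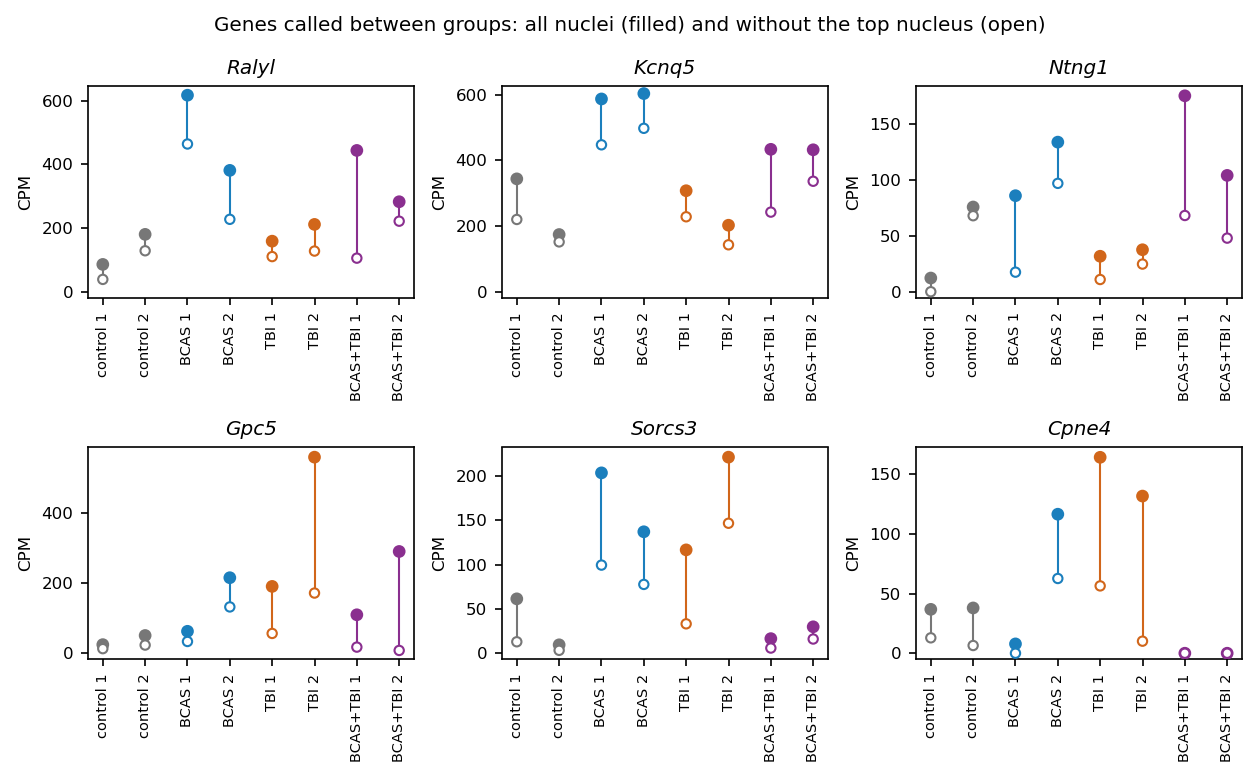
CPM of Ralyl, Kcnq5, Ntng1, Gpc5, Sorcs3 and Cpne4 in the summed Pvalb nuclei of each library, by group, with filled points for all nuclei and open points after the nucleus richest in that gene is left out. Ralyl, Kcnq5 and Ntng1 are higher in the 4 libraries with BCAS, and leaving out 1 nucleus lowers Ralyl in BCAS+TBI 1 from 444 to 106 CPM and Gpc5 in TBI 2 from 560 to 172 CPM.

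Gpc5, a heparan sulphate proteoglycan of the glypican family (chromosome 14, 115092215 to 116525179, plus strand), stood at 24.5 and 50.6 CPM in control, 62.6 and 216 in BCAS, 191 and 560 in TBI, and 110 and 290 in BCAS+TBI. Both TBI libraries lay above both control libraries, with a log2 difference of 3.17 ± 0.55 (adjusted p = 0.0474, edgeR's quasi-likelihood test). However, 26 of 36 UMIs in TBI 1 and 85 of 119 in TBI 2 came from 1 nucleus each, and without that nucleus the levels were 56.4 and 172 CPM. The call was lost without control 2 (2.15 to 3.58 over left-out libraries, adjusted p from 2.96e-15 to 0.626) and held in 5 of 10 other settings (0.70 to 3.62, adjusted p from 1.19e-15 to 0.997).

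Cpne4, a calcium-dependent membrane-binding copine (chromosome 9, 104547286 to 105034544, plus strand), had 3 and 12 UMIs in control, 1 and 40 in BCAS, 31 and 28 in TBI and 0 and 0 in BCAS+TBI. The TBI level was 147 CPM, and 3 UMIs over the BCAS+TBI group would be 9.47 CPM, which is 15.5-fold lower. That ratio treats UMIs as independent and sets no lower bound on the group difference, because most TBI UMIs lay in few nuclei. In TBI 1, 21 of the 31 UMIs lay in 1 nucleus, and in TBI 2, 26 of 28. The adjusted p against TBI was 0.0307 (edgeR's quasi-likelihood test; 5.31e-11 to 0.385 with 1 library left out, lost without BCAS+TBI 1, and past the threshold in 3 of 9 other settings, adjusted p from 1.11e-09 to 1.00), and the fitted fold depends on the prior count, since 1 group is at 0. Sorcs3, a neuronal sorting receptor (chromosome 19, 48206025 to 48805505, plus strand), stood at 61.3 and 9.49 CPM in control, 203 and 137 in BCAS, 117 and 221 in TBI, and 16.5 and 29.8 in BCAS+TBI. It was higher with either surgery than with neither or both, with an interaction of -5.76 ± 0.80 on the log2 scale (adjusted p = 0.0021, edgeR's quasi-likelihood test; 1.12e-14 to 0.0550 with 1 library left out, lost without control 2, and past the threshold in 5 of 9 other settings, adjusted p from 1.13e-12 to 0.999).

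Below the threshold, the genes with the smallest p-values are given as values for some of the contrasts. For TBI against control, after Gpc5, they were Sorcs3 (log2 difference 2.96), Nell1 (2.31, both with an adjusted p of 0.0557 in edgeR's quasi-likelihood test), Adarb2 (3.20, 0.0662) and Tll1 (-1.53, 0.47). For BCAS+TBI against control these were Vwc2l (log2 difference -2.69), the adhesion molecule Ncam2 (-1.10), the cation channel Trpm3 (1.74), the glutamate transporter Slc1a2 (1.98) and Ptgds (3.22), each with an adjusted p of 0.334 in edgeR's quasi-likelihood test. Without BCAS+TBI 1, in which 65 of 69 Trpm3 UMIs lay in 1 nucleus, Trpm3 and Slc1a2 came to -0.20 and -0.0011. For TBI averaged over BCAS they were Trpm3 (1.66, adjusted p = 0.126), Gpc5 (1.79), Nell1 (1.38), Car10 (-1.02, adjusted p = 0.221 for all 3) and Unc13c (1.69, adjusted p = 0.272). For BCAS against control they were Ralyl (1.66), Sorcs3 (2.87, both with an adjusted p of 0.0692), Kcnq5 (1.34), the potassium channel subunit Kcnip4 (1.18, both 0.0886) and Ptprk (1.83, 0.150), Kcnip4 with 1312 and 882 CPM in control and 2190 and 2758 CPM in BCAS.

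Markers of other interneurons were counted beside Gpc5, Cpne4 and Sorcs3. Of 8 listed markers of Vip, Lamp5 and Cck interneurons all had a UMI among the Pvalb nuclei, and their summed level was 159 and 101 CPM in control, 415 and 285 in BCAS, 551 and 908 in TBI, and 32.9 and 432 in BCAS+TBI. Of these, Adarb2 had the most UMIs, 454, of which 431 lay in the 15 nuclei with at least 5. Those 15 nuclei, numbering 1, 1, 1, 2, 3, 5, 0 and 2 in control 1 and 2, BCAS 1 and 2, TBI 1 and 2 and BCAS+TBI 1 and 2, held 7.02% of all UMIs of Pvalb nuclei but 79.1% of those of Cpne4, 59.2% of Sorcs3 and 42.4% of Gpc5. They held 6.62% of Ralyl, 9.78% of Kcnq5 and 2.82% of Ntng1. Without them, in an alternative added after seeing the data, Gpc5 differed by 0.70 on the log2 scale between TBI and control and Cpne4 fell below the filter on low counts. Adarb2 itself differed by 3.20 between TBI and control, short of the threshold (adjusted p = 0.0662, edgeR's quasi-likelihood test). That alternative therefore removes nuclei unevenly between the groups compared. Between the classes themselves, Sorcs3 averaged 99.3 CPM in Pvalb nuclei and 1381 CPM in Vip nuclei, and Cpne4 averaged 61.9 and 246 CPM.

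No gene of any list, neither those of firing and release nor those of injury, was called in any of the 7 contrasts between groups. Among 12 tested potassium channel genes the median log2 difference was -0.10 for TBI, 0.17 for BCAS and -0.01 for BCAS+TBI against control, and 0.16 for BCAS+TBI against TBI, beside medians over all genes of -0.01, -0.00, 0.01 and 0.02. Kcnc1 stood at 454 and 607 CPM in control, 532 and 472 in BCAS, 440 and 414 in TBI, and 532 and 544 in BCAS+TBI. Syt2 stood at 270 and 215 CPM in control, 227 and 184 in BCAS, 228 and 287 in TBI, and 241 and 201 in BCAS+TBI. Ppargc1a stood at 331 and 266 CPM in control, 188 and 218 in BCAS, 265 and 315 in TBI, and 225 and 283 in BCAS+TBI. The 13 tested genes of mitochondrial energy supply had a median of -0.15 for BCAS averaged over TBI, 12 of them negative. For TBI averaged over BCAS the median was 0.17, with 11 positive, and none was called. Over all genes these medians were -0.0007 and -0.003, and the share of all genes with either sign was not counted. The summed list stood at 943 and 2010 CPM in BCAS+TBI 1 and 2, and the signs of its genes are not independent of each other.

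Few genes of activity, injury and low oxygen could be tested. None of 18 immediate early genes was abundant enough to test, and all 18 together had 163 UMIs, or 56.9 to 164 CPM per library. Of 20 neuron injury genes, summed at 285 to 576 CPM per library, 3 were tested, and Atf3, Sprr1a and Hspa1a had no UMI in any of the 183 nuclei, which allows a share of nuclei with a UMI of up to 1.64%. Of 18 hypoxia response genes, summed at 323 to 515 CPM per library, 3 were tested, with medians of -0.40 for TBI and -0.31 for BCAS, each averaged over the other surgery, and none called. Transcripts of glia were low, with the astrocyte list at 22.3 to 159 CPM, the microglia list at 20.4 to 104 CPM and the oligodendrocyte list at 49.4 to 111 CPM per library, and Aqp4, Cx3cr1 and Mog at 0 by the rule.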

How the data were processed

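Nuclei of 8 libraries were profiled with 10x 3' chemistry. The deposited files hold raw counts of UMIs per gene and barcode, made by the authors; per the file headers the program was Cell Ranger 7.0.0. The genome is GRCm38 (mm10) per the submitters' processing notes, which also name Seurat without a role. Whether intronic reads were counted is not given in the sources used here. The labels' protocols aim at about 3000 captures per library, and the files hold 6191 to 7882 barcodes.

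Of 53390 barcodes, the 44762 with 1000 UMIs or more, 300 genes or more and no more than 5% of UMIs from mitochondrial genes were analysed. No doublet caller was run. The rule limits only Sst, Vip, the 2 glutamate transporters and the 3 glial genes, and sets no limit on Lamp5, Adarb2 or other markers. It kept 15 nuclei with at least 5 Adarb2 UMIs. In an alternative, 1 nucleus with over 3 times the median UMIs was left out. Sst nuclei had at least 4 Sst UMIs, Vip nuclei at least 2 Vip UMIs and Lamp5 nuclei at least 2 Lamp5 UMIs, with at most 1 Pvalb UMI and the limits of the other markers. Counts were summed per library and fitted in edgeR 4.0.16 (R 4.3.3) by its two-sided quasi-likelihood test, with TMM scaling, a filterByExpr minimum of 10 counts and Benjamini-Hochberg adjustment over all tested genes at 0.05, and with terms for group and library set, or for library and class. DESeq2 1.42.0 was an alternative. Shares were compared by exact permutation (scipy 1.17.1). Genes of the rule were described without a test. The fits were tested on simulated counts. By a fixed rule up to 8 genes past the threshold in order of p, otherwise the 5 with the smallest p, were named per contrast, and 10 in each direction per class comparison, without predicted and mitochondrial genes; genes of the lists could be named for their list. The members and the lists were chosen with earlier results of these data known. Positions are from GENCODE M21 on GRCm38. Results for some listed genes are not reported here.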

Additional observations from a re-analysis of the deposited data

Results flagged for a closer look

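The share of Pvalb nuclei among GABAergic nuclei in control 1, 2.66%, lay apart from the other 3 libraries without TBI, which reached 3.80%: its gap to the nearest of them was 0.852 of the whole range, past Dixon's critical value for 4 samples. Chance flags about 1 in 20 such groups, and 12 groups of 4 libraries were looked at. Control 1 was also the library with the fewest Pvalb nuclei, 12. For Sorcs3 and Cpne4 the effect of TBI differed between libraries with and without BCAS by the interaction test, with log2 values of -5.76 and -9.02 (adjusted p = 0.0021 and 0.0236 in edgeR's quasi-likelihood test; the fitted value of Cpne4 depends on the prior count). Over left-out libraries the adjusted p of the Cpne4 interaction ran from 4.32e-11 to 0.986 and was lost without control 2, BCAS 2 or BCAS+TBI 1, and under the other settings it ran from 1.49e-09 to 0.624, past the threshold in 3 of 8. The Sorcs3 interaction was lost without control 2 (adjusted p 0.0550). The 15 nuclei with at least 5 Adarb2 UMIs held 59.2% of the Sorcs3 and 79.1% of the Cpne4 UMIs.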

How the results depend on the processing

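The counts of genes called between the groups changed with most settings. In the order TBI, BCAS and BCAS+TBI (each against control), then BCAS+TBI set against TBI, TBI averaged, BCAS averaged and the interaction, they were 1, 0, 0, 1, 0, 4 and 2. In the same order they were 5, 11, 8, 10, 13, 17 and 8 without a filter on low counts, 1, 4, 12, 1, 1, 6 and 1 with at least 3 Pvalb UMIs per nucleus, 3, 5, 0, 2, 0, 5 and 2 without the nucleus of very high UMIs, 2, 3, 0, 4, 4, 7 and 3 after thinning to the smallest total, and 0, 0, 0, 1, 0, 4 and 2 with RLE normalization. They were 0 throughout without the library set and 0, 0, 0, 0, 0, 0 and 1 in DESeq2. Without the Meis2/Six3 nuclei they were 0, 0, 0, 0, 0, 1 and 0, and without the nuclei with at least 5 Adarb2 UMIs 0, 0, 0, 0, 0, 2 and 0, both added after seeing the data. With only the groups compared in the fit, the first 4 contrasts called 9, 0, 13 and 0 genes. Leaving out 1 library gave 0 to 16, 2 to 15, 0 to 23, 0 to 11, 0 to 16, 1 to 24 and 1 to 11 genes, with the most without TBI 1 or TBI 2.

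A replicate block in place of the library set gave 1, 0, 0, 0, 1, 0 and 0 called genes. The numbers do not pair the libraries: deviations from the group means of libraries with the same number correlated from -0.403 to 0.321, while those of the same set correlated from 0.277 to 0.403.

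Against Sst, Vip and Lamp5 nuclei 498, 468 and 414 genes were called, with 1295, 1397 and 1296 without a filter, and 258, 198 and 204 with each nucleus thinned to 3000 UMIs. Leaving out 1 library gave 484 to 536, 426 to 523 and 394 to 473. Among the single genes named for these comparisons Nrg1 against Vip nuclei changed sign, to -0.28 without the Meis2/Six3 nuclei. In the groups Trpm3 and Slc1a2 did so, ranging from -0.20 to 2.20 and from -0.0011 to 2.41 for BCAS+TBI against control over left-out libraries, the lowest without BCAS+TBI 1.

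The difference in the share of Pvalb nuclei was 0.686 points for TBI and 0.265 for BCAS. It was -0.154 and -0.631 with at least 3 Pvalb UMIs, and -0.117 for BCAS with each barcode thinned to 3000 UMIs. Over left-out libraries it ran from 0.172 to 1.19 for TBI and from -0.264 (without BCAS+TBI 2) to 0.937 for BCAS, with -0.0664 without control 1 and -0.0830 without TBI 2. Each library had 12 to 34 Pvalb nuclei, whose number limits the precision of every value.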

Other observations

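Some listed genes outside the groups described so far also set the Pvalb nuclei apart. Kcnma1, the pore-forming subunit of the BK channel that Kcnmb2 accompanies, averaged 1902 ± 345 CPM (SD, n = 8 libraries) and was called higher against Sst, Vip and Lamp5 nuclei (log2 differences 1.18, 1.94 and 1.69); without the Meis2/Six3 nuclei the difference from Sst nuclei was 0.84 and not 2-fold. Ntrk3, the receptor of neurotrophin-3, was called higher against Sst nuclei (1.13; not called with no filter on low counts), with 0.09 and 0.97 against Vip and Lamp5 nuclei. Gap43, a growth cone protein counted among the injury genes, averaged 30.9 ± 19.8 CPM and was called lower against Sst (-2.19) and Lamp5 nuclei (-1.69). Of the calcium-binding proteins other than parvalbumin, Calb1 was called lower against Sst nuclei (-2.88) and Necab1 against Vip (-3.05) and Lamp5 nuclei (-2.65).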
